A study of Mus musculus with 84 samples.

Results

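Mouse embryonic fibroblasts (MEFs) driven towards pluripotency by a doxycycline-inducible cassette were compared on day 3 with and without a constitutively active form of SMAD3. The comparison used the 9 wells labelled as Smad3CA on day 3 (+Sm3CA) and the 9 wells labelled as BFP control on day 3 (Cont), out of 84 wells in the series. The wells of each replicate number were technical repeats of 1 sample and were summed, giving 3 libraries a side out of 30 libraries. All 6 libraries came from cells of the 129 strain background that carried the MKOS cassette, which encodes c-Myc, Klf4, Oct4 and Sox2 followed by mOrange, in the Sp3 locus together with a CAG promoter-driven rtTA. The cells also carried a Nanog-GFP knock-in that disrupts 1 Nanog allele. They had been made from chimeric embryos of a single ESC line, male and female embryos mixed, and were grown as a minority among wild-type MEFs. Both groups were infected once with a pMXs retrovirus, encoding BFP in Cont and Smad3CA in +Sm3CA, then kept in LIF-containing ESC medium with doxycycline at 300 ng/ml and vitamin C, and sorted for mOrange on day 3. The sort selected for the cassette and not for the retrovirus, so a library may hold cells that received no Smad3CA. Since the RNA was from bulk samples, fewer cells of a kind and less RNA per cell cannot be told apart.

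SMAD3 is a receptor-regulated SMAD protein that carries TGF-β, activin and nodal signals from the cell membrane to the nucleus. The activated type I receptor phosphorylates serines at its C terminus, after which SMAD3 joins SMAD4, enters the nucleus and binds DNA beside other transcription factors. In fibroblasts this route is best known for inducing matrix and contractile genes and for holding back the mesenchymal-to-epithelial transition (MET) that opens reprogramming.

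Smad3CA has the phosphorylated serines replaced by acidic residues. The end of the endogenous coding sequence is shown because it holds the exchanged codons. In GENCODE transcript Smad3-201, which has 425 codons before its stop, the last 30 bases of the coding sequence with its stop codon (GRCm38, chr9:63650262-63650291, minus strand) carry the 4 last codons in capitals, read as serine, serine, valine and serine.

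Smad3 coding end: ccgagcatccgctgtTCCAGTGTGTCTtag

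The read counts per gene did not separate reads of the vector from reads of the endogenous gene, so Smad3 counts are the sum of both.

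The 6 libraries held 1288666 to 1935592 reads assigned to genes, from wells of 220714 to 728514 reads, and the ranges of both groups overlapped. Normalized counts below are read counts divided by a library size factor, and of 18909 genes in the file 10237 had enough reads to be tested. The share of reads on mitochondrial genes was 13.5% to 14.6% in +Sm3CA and 17.4% to 19% in Cont, so every +Sm3CA library lay below every Cont library. All 15 tested mitochondrial rRNA and protein genes had a fitted difference below 0, with a median of −0.38 on the log2 scale. Of these, 5 were lower at an unadjusted p under 0.05, beside 2.38% of all genes tested, and none passed edgeR's adjusted threshold. For 10 of the 15 the libraries lay apart with +Sm3CA below, beside 5.92% of all genes tested, and for none with +Sm3CA above. In edgeR's fit of the 6 libraries alone with a replicate block, mt-Rnr2, the large mitochondrial rRNA, passed as lower (log2 difference −0.56, adjusted p = 0.0162). It passed neither in that fit without the block nor in edgeR's fit of 24 libraries (adjusted p = 0.962). The replicate numbers did not pair +Sm3CA with Cont. On days 6 and 8 the shares of both groups overlapped, and on day 10 they were higher in +Sm3CA, at 20.9% to 24.3% against 15.9% to 18.9%. The part of this share in the results below was not tested. Leaving the mitochondrial genes out of totals and tests left the same 2 genes past the threshold, which does not test that part. The 7 fibroblast markers summed to 1714 to 2052 normalized counts in +Sm3CA and 1395 to 1996 in Cont, below the 7492 to 10169 of the unreprogrammed MEFs of the series. The 6 markers of pluripotent cells summed to 14.6 to 24.1 in +Sm3CA and 23.2 to 36.3 in Cont, against at least 27985 in ESCs, with Nanog and Dppa3 at 0 reads in both groups. The 6 keratinocyte markers summed to 587 to 1211 in +Sm3CA and 488 to 811 in Cont, and the 8 markers of neural cells and glia to 455 to 619 and 326 to 509.8, with overlap in both cases. In MEFs the sums were 68.9 to 72.7 and 38.0 to 59.7. Of the neural and glial markers, Sox10, Elavl3, Gfap and Olig2 had no read in +Sm3CA, and Olig2 had none in Cont. Endothelial and muscle markers summed to at most 12.2 in any of the 6 libraries.

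**Figure D1:**
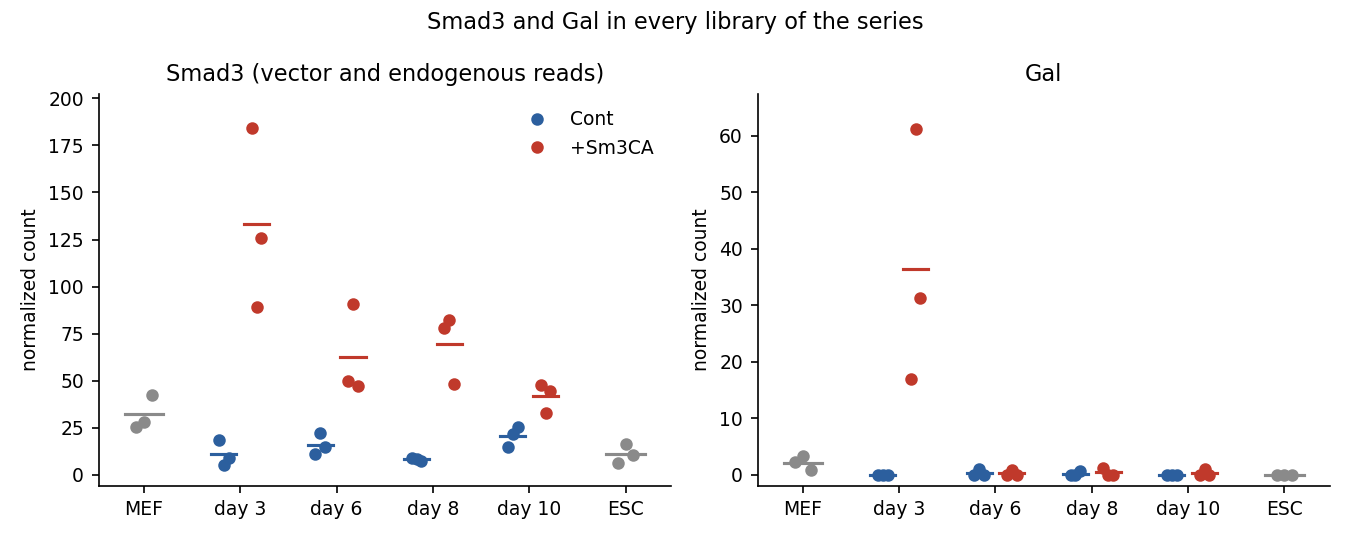
Normalized read counts of Smad3 (left) and Gal (right) in all 30 libraries, by day, with MEFs and ESCs in grey. Each point is 1 library of summed wells and each bar is the mean of 3. Smad3 was 89.0 to 184 normalized counts in the +Sm3CA libraries of day 3 and 47.2 to 90.8 in those of day 6. Gal reached 16.9 to 61.2 in the +Sm3CA libraries of day 3, against at most 3.26 in any other library.

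Whether the active SMAD3 had altered expression by day 3 was asked of every tested gene. Only 2 genes passed the threshold of an adjusted p under 0.05 in edgeR's quasi-likelihood fit, both higher in +Sm3CA: Smad3, the gene the vector carries, and Gal, which encodes the neuropeptide galanin. These 2 calls are 0.0195% of all genes tested. DESeq2's Wald test called the same 2 genes.

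The +Sm3CA libraries had 184, 89.0 and 126 normalized counts of Smad3, and the Cont libraries had 18.7, 5.19 and 8.94. The groups did not overlap, and the lowest +Sm3CA library was several times the highest Cont library. The means were 133 ± 48.0 (SD, n = 3) and 10.9 ± 6.99 (SD, n = 3), a ratio of 12.2. The fitted log2 fold change was 3.53 (standard error 0.34, adjusted p = 1.51e-08). All 9 +Sm3CA wells held 24 to 85 Smad3 reads, and all 9 Cont wells held 1 to 9. The Cont mean was below that of MEFs, 32.0 ± 9.03 (SD, n = 3), and close to that of ESCs, 11 ± 4.97 (SD, n = 3). No library went against its label in its Smad3 count.

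Galanin is a secreted peptide that acts through 3 G protein-coupled receptors (Galr1, Galr2 and Galr3). Its gene (ENSMUSG00000024907, protein coding) lies on the minus strand at chr19:3409915-3414544 in GRCm38, whereas Smad3 (ENSMUSG00000032402, protein coding) lies on the minus strand at chr9:63646767-63757994. The +Sm3CA libraries had 16.9, 61.2 and 31.3 normalized counts of Gal, from 22, 66 and 30 reads, and the Cont libraries had no read. Every one of the 9 +Sm3CA wells held 5 to 29 Gal reads, 118 in all, and none of the 9 Cont wells held any. A count of 0 in a library allows up to 3 reads, which is 3.89 normalized counts in the shallowest Cont library, so the +Sm3CA mean of 36.5 ± 22.6 (SD, n = 3) was at least 9.37-fold higher (adjusted p = 0.000131). Floors of this kind cover counting error only. A two-sided exact permutation test on the 6 libraries gave p = 0.1 for Gal and for Smad3, the smallest p that 3 against 3 allows.

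The order of the +Sm3CA libraries was opposite for the 2 genes. Library 1, with the most Smad3, had the least Gal, and library 2, with the least Smad3, had the most. With 3 libraries this is a description only. Outside +Sm3CA on day 3, Gal was read in 8 of 27 libraries, with at most 3 reads in any of them. The 3 MEF libraries held 1 to 3 Gal reads, and 5 of the 18 libraries of days 6, 8 and 10 held 1 or 2. Gal thus stood above 3 reads in no later +Sm3CA library although Smad3 was still 47.2 to 90.8 normalized counts on day 6 and 48.4 to 82.1 on day 8. The change of the Gal difference from day 3 did not pass the interaction test for day 6, 8 or 10 (adjusted p = 0.976, 0.416 and 1.0). That test cannot size the change, because Gal was at 0 in Cont on day 3 and at or near 0 in both later groups. No conclusion is drawn from it.

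The Gal promoter is printed because Gal was the one gene other than the vector's that passed the test. The RefSeq window (GRCm38.p6, chr19:3414495-3414794, minus strand, read 5′ to 3′ in the direction of transcription) runs from 250 bases before the gene's start to 50 after it. Capitals mark matches to CAGAC, a SMAD-binding element core, searched on both strands.

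Gal promoter: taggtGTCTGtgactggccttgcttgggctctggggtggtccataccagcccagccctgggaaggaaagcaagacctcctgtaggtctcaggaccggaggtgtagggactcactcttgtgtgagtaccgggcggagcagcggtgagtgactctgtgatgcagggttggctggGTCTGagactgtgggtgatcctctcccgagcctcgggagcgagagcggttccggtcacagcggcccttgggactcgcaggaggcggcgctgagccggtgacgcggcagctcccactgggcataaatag

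The window held 2 matches to CAGAC, both on the opposite strand, and no match to the palindrome GTCTAGAC. Neither motif lies within the other. Of 32851 RefSeq promoter windows of this length, 49.6% held CAGAC and 16.2% held at least 2 matches, while 0.213% held GTCTAGAC. Such short matches are frequent, and a match is not evidence of binding.

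The 36 neuropeptides, peptide hormones, processing enzymes and galanin receptors of a wider list put Gal in its context. Of these, 32 were in the file, 7 had enough reads to be tested, and Gal was the only one called. Cpe, which encodes carboxypeptidase E of the secretory granule, was 19.6 to 52.0 normalized counts in Cont and 40.7 to 56.6 in +Sm3CA. Pam, whose enzyme amidates peptides such as galanin, was 17.8 to 33.3 and 17.6 to 46.8. Nppb, encoding brain natriuretic peptide, was the most abundant with 155, 179 and 223 in Cont and 111, 206 and 174 in +Sm3CA. All 3 overlapped between the groups. Of the receptors, Galr1 had no read in the 6 libraries and Galr3 a single read, and Galr2 was at 0 to 5.69 in Cont and 5.22 to 8.35 in +Sm3CA, below the level needed for a test.

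**Figure D2:**
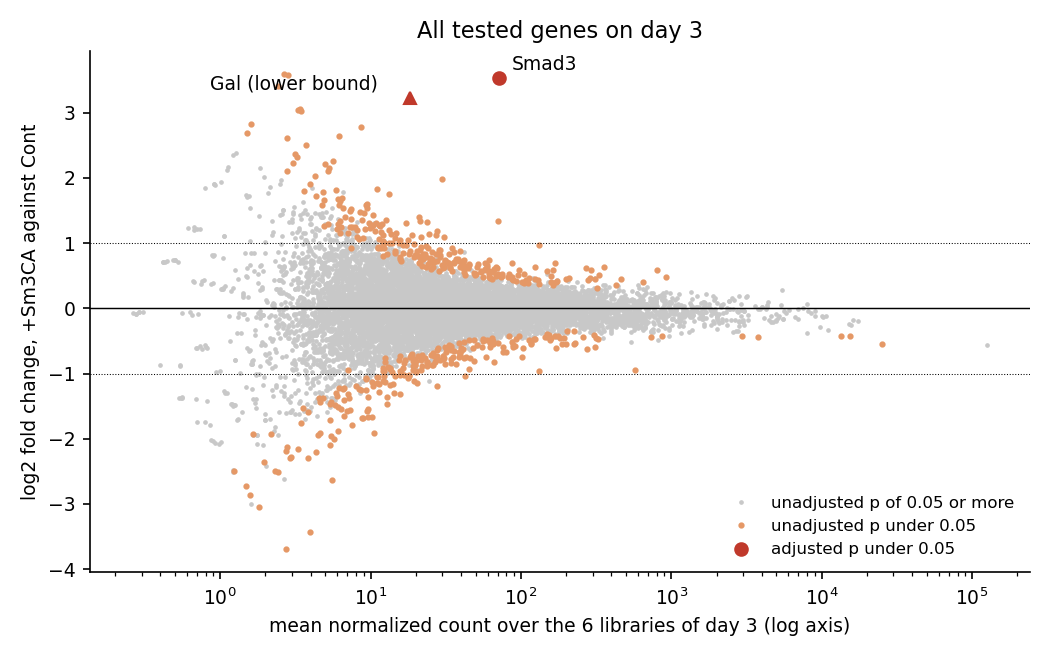
Log2 fold change of +Sm3CA against Cont on day 3 (vertical axis) against the mean normalized count over the 6 libraries (horizontal log axis) for the tested genes. The 112 genes without a read in all libraries of a group are left out, except Gal at its lower bound (triangle), and dotted lines mark 2-fold. Smad3 stands at 3.53 and the spread narrows with the level.

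The remaining genes spread around 0, with a median log2 fold change of 0.0016 and quartiles at −0.21 and 0.21. At an unadjusted p under 0.05, 279 genes were higher in +Sm3CA (2.73% of those tested) and 244 lower (2.38%). Without overlap between the 3 and 3 libraries, 579 were higher (5.66%) and 606 lower (5.92%). How small a difference the 6 libraries could show depended on the level. Of 2119 genes with a mean of 100 or more normalized counts, 2099 (99.1%) had a 95% interval for the fold change inside 2-fold in both directions. Of 5828 genes between 10 and 100, 64.4% did, and of 2290 genes under 10, 1.97% did. For 15 genes under 10 and 2 genes between 10 and 100 the interval lay wholly beyond 2-fold. These intervals are not adjusted for the number of genes tested, and only 2 genes passed the adjusted test. Where a group had no read, the fitted fold is no measure of size.

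The genes of smallest p among those whose libraries did not overlap are named here with their values, and none of them passed the threshold (adjusted p = 0.436 to 0.625). Krt17, a keratin of stressed and basal epithelia, had the smallest p of these higher genes after Smad3 and Gal. It was 116, 151 and 254 normalized counts in +Sm3CA and 64.2, 104 and 97.5 in Cont. Its fitted log2 difference was 0.96 (standard error 0.24, adjusted p = 0.436). Krt17 was itself among the keratinocyte markers, whose summed ranges overlapped between the groups and of which Krt5 had no read in Cont, and the part of such cells in its difference was not tested. Tk1, the thymidine kinase of S phase, was 22.3, 32.5 and 36.5 against 13.4, 13 and 8.13. Tnc, encoding the matrix protein tenascin C, was 159, 62.1 and 77.2 against 30.3, 53.2 and 37.4. With no filter on low counts in edgeR's fit, Krt17 and Tnc passed (adjusted p = 0.00476 and 0.000744). In Krt17, Tk1 and Tnc the lowest +Sm3CA library exceeded the highest Cont library, by a small margin for Krt17 and Tnc. Tln1, encoding the focal adhesion protein talin 1, was 22.3 to 41.7 against 10.4 to 18.7. Pim2, a serine/threonine kinase of the PIM family, was 7.42 to 14.6 against 1.30 to 1.78. Srpx2 was 9.98 to 19.8 against 0 to 6.49 and Hacl1, a peroxisomal lyase, 4.17 to 13 against 1.30 to 2.67. Etfa, the alpha subunit of the mitochondrial electron transfer flavoprotein, was 62.2 to 90.9 against 42.8 to 49.0. These ranges were all apart, as the rule for naming them required.

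Among the genes lower in +Sm3CA without overlap, Sco1, a mitochondrial copper chaperone for cytochrome c oxidase, had the smallest p. Its counts were 31.5, 18.5 and 34.4 in +Sm3CA and 63.3, 53.2 and 55.3 in Cont, with a fitted log2 difference of −1.03 (standard error 0.25, adjusted p = 0.436). Ccl2, a monocyte chemokine secreted by fibroblasts, was 105, 98.3 and 61.6 against 170.3, 206 and 145, and passed with no such filter (adjusted p = 0.00476). C3ar1, the receptor for complement C3a found on myeloid cells, was at most 1.04 against 2.59 to 14.3. Beside these, the 6 markers of blood cells and macrophages found in the file summed to 306 to 625 in +Sm3CA and 363 to 1057 in Cont, ranges that overlap, and most of that sum was Lyz2 (272 to 580.1 and 343 to 1026). Lyz2, which overlapped between the groups, was lower with an adjusted p of 0.00153 in edgeR's fit with no filter on low counts, in which Ccl2 and C3ar1 also passed. The part of such cells in Ccl2 and C3ar1 was not tested. Tmem237, a protein of the ciliary transition zone, was 39.9 to 49.1 against 63.6 to 79.3, and the zinc finger gene Zfp326 10.2 to 15.6 against 24.4 to 31.2. Kank3 was 3.07 to 5.56 against 12.5 to 15.4, the RNA-editing enzyme gene Adar 3.07 to 6.26 against 13 to 15.4, and Pdzrn3 3.13 to 6.49 against 11.4 to 19.5. The polo-like kinase gene Plk3 was at most 0.768 against 3.25 to 7.13, and the cytochrome P450 gene Cyp2s1 had no read in +Sm3CA against 1.63 to 5.19 in Cont, both too scarce for a fold to be given.

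**Figure D3:**
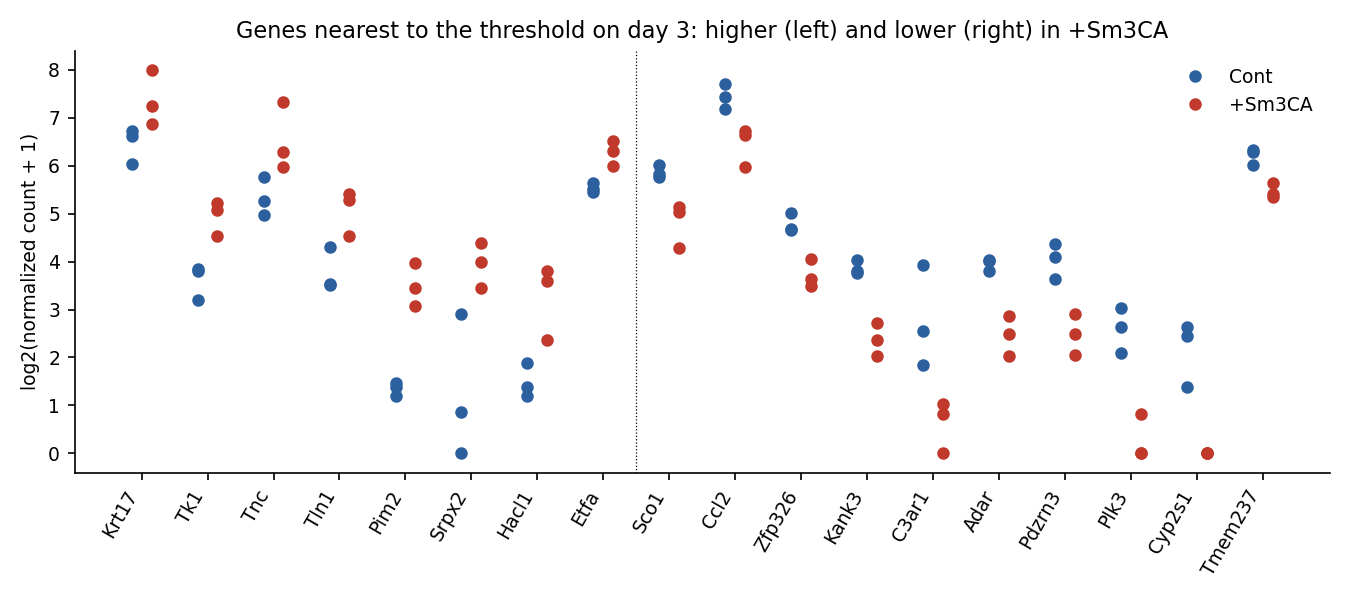
Values per library, as log2(normalized count + 1), of 18 genes on day 3, with Cont in blue and +Sm3CA in red. They are the genes of smallest p whose libraries did not overlap, other than Smad3 and Gal. Genes left of the dotted line were higher in +Sm3CA and genes right of it lower, by selection. Krt17 was 116 to 254 normalized counts in +Sm3CA against 64.2 to 104 in Cont, and none of the 18 passed the adjusted test.

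Genes known to be induced by TGF-β and SMAD3 came next, since they are the route's usual targets. The list held 40 names, with Ctgf and Cyr61 also listed as Ccn2 and Ccn1. Of the 38 in the file 37 were tested and none was called. The median log2 difference of the list was 0.11, against 0.0016 over all genes. At an unadjusted p under 0.05, 2 were higher (Ctgf and Tpm1) and 1 lower (Skil), beside 2.73% and 2.38% of all genes tested. Ctgf, the matricellular growth factor CCN2, was 143, 109 and 97.0 in +Sm3CA and 62.4, 88.2 and 83.7 in Cont (log2 difference 0.58, standard error 0.24, adjusted p = 0.843). Tpm1, an actin-binding tropomyosin, was 647, 852 and 722 against 530.4, 629 and 520.2 (adjusted p = 0.93). Together with Cdkn2b, Snai2, Cnn1 and Fn1, these made 6 of 37 members whose libraries lay apart with +Sm3CA above, and none lay apart with +Sm3CA below, beside 5.66% and 5.92% of all genes tested. Fn1, encoding fibronectin, was 194 to 206 against 157 to 169.9, and for the cell cycle inhibitor Cdkn2b the ranges of 19.5 to 26.9 and 13 to 19.5 met at their edge. Skil, the SnoN co-repressor whose transcription TGF-β induces, was on the other side, at 39.9, 63.1 and 36.5 against 75.8, 64.9 and 56.9, with overlap.

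Several much studied targets overlapped between the groups. Smad7, the inhibitory SMAD that active SMAD3 induces in many cells, was 7.68, 7.42 and 17.7 in +Sm3CA and 11.6, 15.6 and 13 in Cont. Its 95% interval for the log2 difference ran from −1.27 to 0.65. Cdkn1a, the cell cycle inhibitor p21, was 682 to 1004 against 788 to 914, with an interval from −0.33 to 0.35 that lies inside 2-fold. Timp1, an inhibitor of matrix metalloproteinases, was 1043 to 2322 against 1268 to 1789, with an interval from −0.39 to 0.58. Periostin (Postn), a matrix protein, was 2.09 to 8.44 against 2.67 to 22.1. For 24 of the 37 members the interval lay inside 2-fold.

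Smad2, the second receptor-regulated SMAD of this route, was 54.5, 42.7 and 33.4 against 54.4, 51.9 and 50.4. Smad4, the shared partner, was 123, 86.3 and 103 against 95.4, 96.0 and 105, with an interval for the log2 difference from −0.34 to 0.49. Besides Smad3, none of the 14 tested members of the SMAD family and its co-repressors was called, and their median log2 difference was −0.14. Smurf1, an E3 ligase of SMADs, was 25 to 33.4 against 12.2 to 24.6, and Tgif1, a co-repressor, 57.6 to 89.0 against 67.5 to 75.8. Smad1 and Smad9, which carry BMP signals, overlapped between the groups.

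The 13 listed transcriptional co-activators, among them the 4 that the study probed for binding to SMAD3 (Dpy30, Ep300, Smarca4 and Med15) and other subunits of such complexes, were all tested and none was called, with a median of 0.07. Smarcb1, a core subunit of the BAF chromatin remodeller, was 126, 113 and 131 in +Sm3CA and 105, 96.0 and 77.2 in Cont (log2 difference 0.41, standard error 0.21, adjusted p = 0.962). It was the only member whose libraries lay apart, beside 5.66% of all genes tested with +Sm3CA above and 5.92% with +Sm3CA below. Crebbp, a histone acetyltransferase, was 29.7 to 69.9 against 31.7 to 45.4, Smarca4, the remodeller's ATPase, 72.3 to 94.4 against 49.9 to 85.6, and Dpy30, a subunit of H3K4 methyltransferase complexes, 565 to 754 against 604 to 801.

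Upstream of SMAD3, 17 of 32 listed ligands, receptors and regulators of TGF-β, activin and nodal were tested and none was called. Their median was 0.33, and 0.02 when the 3 members without a read in all libraries of a group were set to their bounds or to 0. Inhba, which encodes the activin A subunit, was 51.4, 62.1 and 45.9 in +Sm3CA and 17.8, 46.7 and 25.2 in Cont, with a narrow overlap. Furin, a protease that matures TGF-β precursors, was 8.35 to 12.1 against 1.78 to 7.32, without overlap. Tdgf1, a nodal co-receptor, lay apart on the other side, with no read in +Sm3CA and 0.813 to 1.30 in Cont, below what a count of 0 allows. In this list 1 member lay apart with +Sm3CA above and 1 with +Sm3CA below, beside 5.66% and 5.92% of all genes tested. The latent TGF-β binding protein genes Ltbp1 and Ltbp2 and the activin antagonist gene Fst overlapped. Nodal had no read in the 6 libraries, and Tgfb1 had a single read. On the BMP side, 15 of 26 genes were tested with a median of −0.08 and none was called. Bmp1, a procollagen C-proteinase and not a BMP ligand, was 30.6 to 42.8 against 17.1 to 23.2 (adjusted p = 0.817). The Id genes, usual targets of BMP signals, overlapped in all 4 cases, with Id3 at 303 to 477 against 364 to 475.

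**Figure D4:**
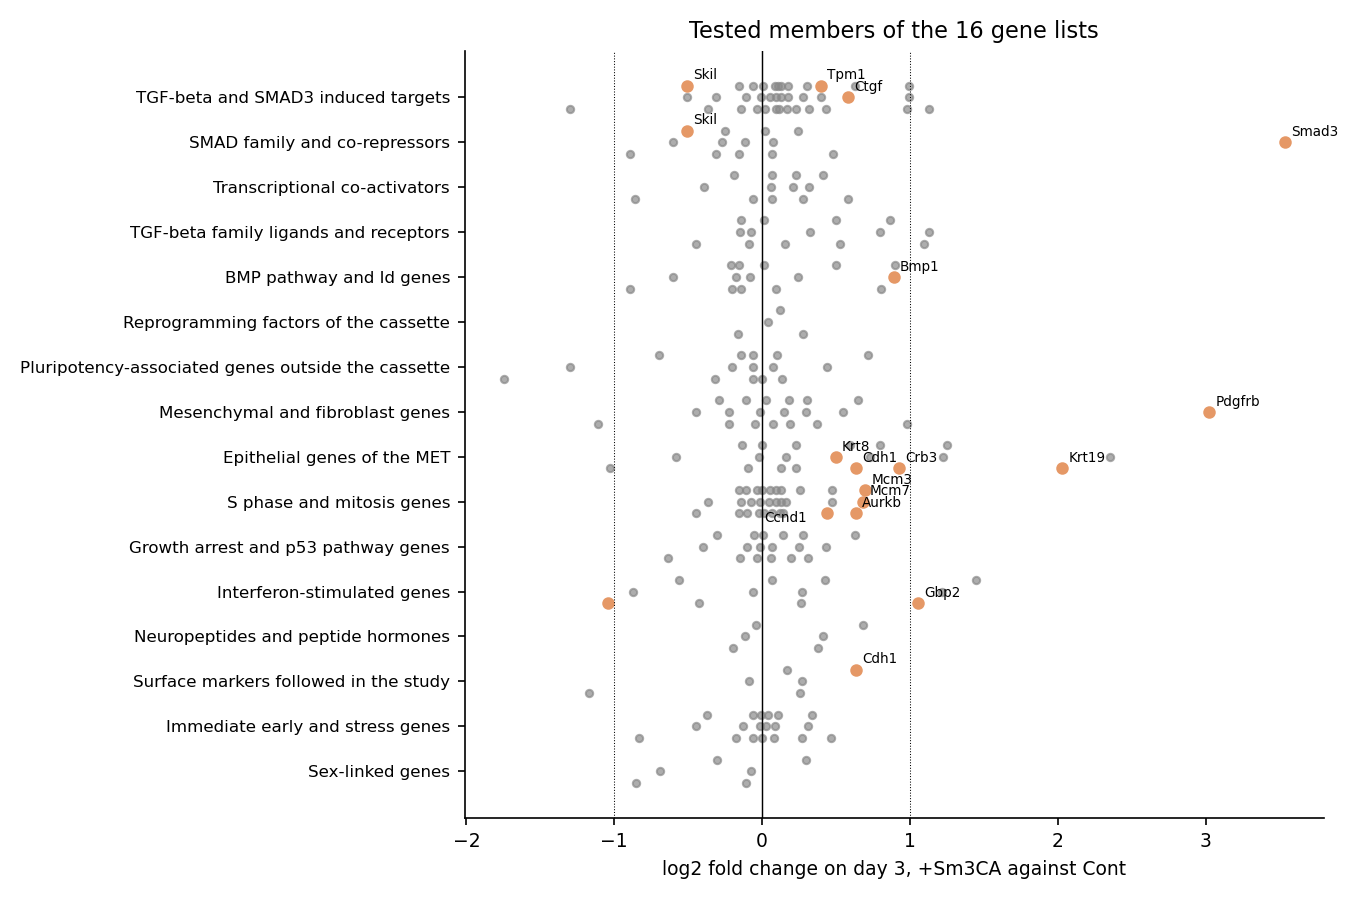
Log2 fold change on day 3 of the tested members of the 16 gene lists, 1 point per gene; orange points have an unadjusted p under 0.05, most with the name beside them. Genes without a read in all libraries of a group, Gal among them, are not drawn, and dotted lines mark 2-fold. Smad3 at 3.53 is the only point that passed the adjusted test, and most members lie within 2-fold.

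The reprogramming state of the cells was compared through the cassette, the pluripotency genes and the MET. The 4 cassette genes did not differ beyond their spread, and all 4 intervals lay inside 2-fold. Pou5f1 was 20.7, 15.8 and 16.7 in +Sm3CA and 25, 14.3 and 19.5 in Cont, Sox2 13 to 36.5 against 13 to 25.2, Klf4 15.4 to 20.9 against 13.4 to 19.5, and Myc 28.8 to 50.1 against 25 to 37.6. Reads of these 4 genes can come from the cassette or the endogenous gene. Of 35 pluripotency-associated genes outside the cassette 24 were tested, none was called and their median was 0.0. Most were near 0 reads. Tdh, a mitochondrial threonine dehydrogenase of ESCs, was an exception at 259 to 406 against 248 to 356, where MEFs had none and ESCs 929. Gdf3, a TGF-β family ligand of pluripotent cells, was at 0, 3.71 and 1.04 against no read in Cont, at the limit of what a count of 0 allows.

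Of 24 epithelial genes of the MET 21 were tested, and none was called. At an unadjusted p under 0.05, 4 were higher in +Sm3CA (Krt19, Krt8, Crb3 and Cdh1) and none lower, beside 2.73% and 2.38% of all genes tested, and the list's median was 0.23. Cdh1, which encodes E-cadherin, was 28.4, 31.5 and 26.1 in +Sm3CA and 14.3, 14.3 and 25.2 in Cont (log2 difference 0.64, standard error 0.29, adjusted p = 0.93). Krt8, a keratin of simple epithelia, was 147, 237 and 175 against 131, 153 and 112 (adjusted p = 0.817), with overlap. Krt19 was 6.14 to 8.35 against 1.30 to 1.78, and Crb3, a polarity protein, 8.35 to 11.5 against 2.67 to 7.32. Krt18, the usual partner of Krt8, lay apart in the other direction, at 2.30 to 7.30 against 8.91 to 11.7. Of the 21 tested members, 3 lay apart with +Sm3CA above and 1 with +Sm3CA below, beside 5.66% and 5.92% of all genes tested. The junction genes Perp, F11r and Dsp overlapped, with Perp at 306 to 461 against 331 to 451.

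Of 26 mesenchymal and fibroblast genes 21 were tested with a median of 0.07, and none was called. Pdgfrb, the PDGF receptor beta, was 3.84 to 7.42 in +Sm3CA and 0 to 1.30 in Cont. Zeb1, a repressor of E-cadherin, was 3.71 to 11.5 against 14.3 to 22.8, while Zeb2, its paralog, was 15.8 to 16.7 against 9.75 to 13. Of the 21 tested members, 3 lay apart with +Sm3CA above and 1 with +Sm3CA below, beside 5.66% and 5.92% of all genes tested. The proteoglycan gene Dcn (488 to 985 against 455 to 683), the intermediate filament gene Vim (697 to 734 against 635 to 899) and Prrx1 overlapped. Among the 6 surface markers followed in the study, Cd44 was 369, 399 and 322 against 299.5, 310 and 293, and Icam1 11.5 to 31.3 against 13.8 to 22.1. Neither passed the test (adjusted p = 0.962 and 1).

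All 30 genes of S phase and mitosis were tested and none was called. At an unadjusted p under 0.05, 4 were higher in +Sm3CA and none lower, beside 2.73% and 2.38% of all genes tested, with a list median of 0.06. Ccnd1, cyclin D1 of the G1 phase, was 292, 305 and 362 in +Sm3CA and 234, 224 and 245 in Cont. The replicative helicase subunits Mcm7 (57.4 to 69.1 against 25 to 48.0) and Mcm3 (44.5 to 54.3 against 21.1 to 38.9) and the mitotic kinase Aurkb (34.4 to 53 against 22.8 to 28.5) also lay apart. With Ccnd1 these made 4 of 30 members apart with +Sm3CA above, and none lay apart below, beside 5.66% and 5.92% of all genes tested. The abundant members Birc5 and Pcna overlapped, and for 23 of the 30 genes the interval lay inside 2-fold. Of 18 tested genes of growth arrest and the p53 pathway none was called or had an unadjusted p under 0.05, and their median was 0.03.

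Retroviral infection and handling were followed through interferon-stimulated, immediate early and stress genes. Of 19 tested interferon-stimulated genes none was called. At an unadjusted p under 0.05, 2 were higher and 2 lower, beside 2.73% and 2.38% of all genes tested. The list's median was 0.27, or 0.0 with the 7 members without a read in all libraries of a group at their bounds or at 0. Gbp2, a guanylate-binding protein, was 6.26 to 15.4 in +Sm3CA and 3.57 to 6.5 in Cont. Usp18 and Irf7 had no read in Cont and in +Sm3CA respectively, and at most 3.71 in the other group. None of 19 immediate early and stress genes had an unadjusted p under 0.05, and their median was −0.001. Fos was 67.7 to 91.8 against 61.0 to 65.1, and Ddit3, encoding CHOP, 23.0 to 36.2 against 37.4 to 44.1. None of the 6 tested genes of the X and Y chromosomes was called, and all 6 overlapped.

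Because the day 3 libraries precede 3 later days, the differences were followed over time in the same fit. On day 6, 1 gene was called (0.00977% of those tested), on day 8 106 (1.04%) and on day 10 366 (3.58%). Of the 281 genes lower in +Sm3CA on day 10, 57.7% were above 0 on day 3, against 50.3% of all tested genes, with a day 3 median of 0.05. Of the 85 higher on day 10, 45.9% were above 0 with a median of −0.01. Of the 39 genes higher on day 8, Smad3 among them, 74.4% were above 0 on day 3 with a median of 0.10, and 7 lay apart with +Sm3CA above, beside 5.66% of all genes tested. Of the 67 lower on day 8, 50.7% were above 0 with a median of 0.01. Smad3 was the only gene called on day 3 and again later. Among genes called on day 8 or 10, those of smallest p on day 3 after Smad3 were Krt17, Tnc, Ccl2 and Ccdc18. Ccdc18, encoding a coiled-coil protein, was 3.13 to 6.49 in +Sm3CA and 9.75 to 21.4 in Cont on day 3 (adjusted p = 0.722).

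The change of the difference was tested as an interaction. No gene passed for day 6 against day 3 (0.0% of those tested) by edgeR or by DESeq2. By edgeR 510 of the 10237 genes tested had an unadjusted p under 0.05, about the share that this threshold passes where nothing differs. For day 8 against day 3, 3 genes passed (0.0293%): Krt17, Tagln and the gene model G730013B05Rik. With the replicate number of each series as a block, since the labels pair replicates over days within a series, 10 genes passed, including these 3. The count was 0 without +Sm3CA replicate 3, Cont replicate 1 or Cont replicate 3 of day 3. For day 10 against day 3, 103 passed (1.01%), 92 with a difference that moved down and 11 up, and 27 in all without Cont replicate 1 of day 3.

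Krt17 and Tnc were on opposite sides of Cont on days 3 and 10. The interaction contains the day 3 difference for which both genes were named, so its size includes that choice. Krt17 stood above Cont on day 3 as given above, overlapped on day 6 at 249.7 to 339 against 279.6 to 419, and was below on day 8 at 276 to 406 against 486 to 618. On day 10 it was 253 to 389.7 against 694 to 744 and was called (log2 fold change −1.14, adjusted p = 0.000816). Its difference fell by 1.69 on the log2 scale between days 3 and 8 (standard error 0.32, adjusted p = 0.0445) and by 2.11 between days 3 and 10 (standard error 0.32, adjusted p = 0.00016). Within Cont the mean went from 88.5 ± 21.3 on day 3 to 714 ± 26.5 (SD, n = 3) on day 10, and within +Sm3CA from 174 ± 71.5 to 320.4 ± 68.6 (SD, n = 3), so the keratin was higher on day 10 in both and the larger mean changed sides.

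Tnc was 62.1 to 159 in +Sm3CA against 30.3 to 53.2 in Cont on day 3, and 17.5 to 22.4 against 58.0 to 158 on day 10, when it was called as lower (log2 fold change −2.21, adjusted p = 0.000353). Its difference fell by 3.55 on the log2 scale (SE 0.52 and adjusted p = 8.74e-05). MEFs had 1453 and ESCs no read. Tagln, the contractile protein transgelin and a TGF-β target, overlapped on day 3 at 288 to 456 against 226 to 433. It was below Cont on day 8 at 58.1 to 88.0 against 158 to 283, and its difference fell by 1.67 between days 3 and 8 (standard error 0.32, adjusted p = 0.0445) and by 2.17 between days 3 and 10 (adjusted p = 0.000186). Ccl2, by contrast, was below Cont on day 3 and on day 10, at 337 to 447 against 957 to 1999 on day 10 (adjusted p = 7.64e-07), and the change between these days was −1.0 on the log2 scale (adjusted p = 0.165). Smad3 itself fell by 2.54 in its difference from day 3 to day 10 (standard error 0.51, adjusted p = 0.00585).

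**Figure D5:**
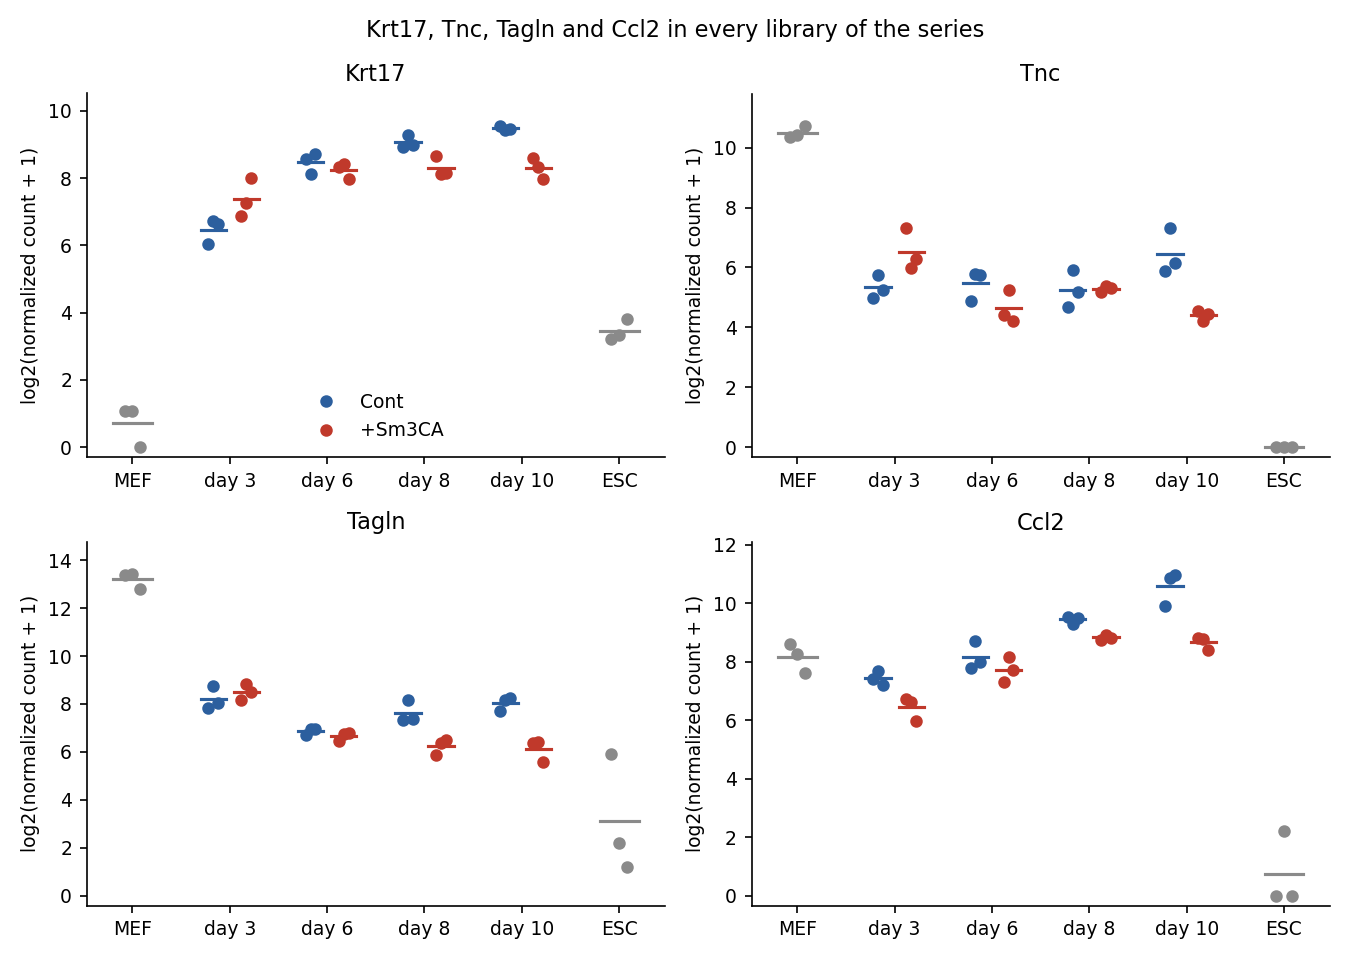
Values per library, as log2(normalized count + 1), of Krt17, Tnc, Tagln and Ccl2 by day, with Cont in blue, +Sm3CA in red, MEFs and ESCs in grey and the mean of the 3 log values as a bar. Krt17 and Tnc lie above Cont on day 3 and below it on day 10, Tagln overlaps on day 3, and Ccl2 is lower on both days.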

How the data were processed

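Per the labels, sorted cells were lysed and sequenced from tagged template-switched cDNA. The deposited counts are the authors' raw read counts per gene, not molecule counts, and the submitters' processing notes name Bowtie 0.12.9, build mm10 and DESeq2 1.6.3. Wells of one replicate number were summed. No column was left unused. The 24 libraries of days 3, 6, 8 and 10 were fitted together in edgeR 4.0.16 (R 4.3.3; filterByExpr, TMM, 1 coefficient per group, quasi-likelihood test, Benjamini-Hochberg adjustment over 10237 genes). Levels are counts divided by DESeq2 1.42.0 size factors over 30 libraries. Figures used matplotlib 3.10.9. The fit was tested on simulated data first.

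The genes named were all genes past adjusted p 0.05, the 10 of smallest p in each direction without overlap, Smad2, Smad4, Smad7 and the cassette genes, and in each list up to 4 members of smallest p and 2 of highest level, and the 5 genes of smallest day 3 p among those called on day 8 or 10. Others (such as Krt18, Tagln, Lyz2, G730013B05Rik, receptors, fuller list values) were added after their values were seen. The comparison and the lists were chosen with earlier results of these data known. Biological replicates are stated in the labels, which pair them over days within a series and not between Cont and +Sm3CA. Deviations of same-numbered libraries of day 3 and a later day had correlations of −0.098 to 0.17 (18 pairs), and a fit with the block within each series, added after the results were seen, was run for the changes between days. The labels give 2500 cells per sample where the methods give another number. On day 3 each library had its own plate column, with the +Sm3CA columns side by side and the Cont columns side by side. Column, library and group therefore cannot be told apart within day 3. The wells of day 3 lay in plate rows A to C and those of later days in other rows, so row and day cannot be told apart either. Molecular tags were not counted, so PCR copies add to the spread. A few results are not reported here.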

Additional observations from a re-analysis of the deposited data

Results flagged for a closer look

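The results listed here are differences between +Sm3CA and Cont whose size changed between day 3 and a later day by the interaction test of edgeR (adjusted p under 0.05). The Krt17 difference changed by −1.69 on the log2 scale between days 3 and 8 and by −2.11 between days 3 and 10. Without +Sm3CA replicate 3, Cont replicate 1 or Cont replicate 3 of day 3, and under 2 other alternatives, the change to day 8 no longer passed (adjusted p up to 0.188), whereas the change to day 10 passed under all 16 alternatives (adjusted p up to 0.00225). The Tnc difference changed by −3.55 between days 3 and 10 and passed under all 16 alternatives (adjusted p up to 0.00117). The Tagln difference changed by −1.67 between days 3 and 8, which was lost without +Sm3CA replicate 2 or 3 or Cont replicate 1 or 3 of day 3 and under 3 other alternatives (adjusted p up to 0.461), and by −2.17 between days 3 and 10, lost only with all 30 libraries in the fit (adjusted p = 0.0515). The Smad3 difference changed by −2.54 between days 3 and 10 and passed under 14 of 16 alternatives, the exceptions being fits of well 2 or well 3 alone (adjusted p up to 0.127). Libraries of day 10 had 2 wells each, so the fits of well 2 and well 3 used the same day 10 wells. The Cyp2s1 difference had a fitted change of 6.20 between days 3 and 10 (adjusted p = 0.0257). That value is no measure of size, because Cyp2s1 had no read in +Sm3CA on day 3, and it passed under 7 of 16 alternatives. It was lost without any of +Sm3CA replicates 1, 2 and 3 or Cont replicates 1 and 2 of day 3, with all 30 libraries in the fit and in fits of single wells (adjusted p up to 0.475).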

How the results depend on the processing

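Smad3 and Gal were called on day 3 under every alternative that tested them, at 3.22 to 4.15 on the log2 scale for Smad3 (adjusted p up to 2.47e-05) and at least 6.19-fold to at least 13.6-fold for Gal (adjusted p up to 0.0108). The extremes for Gal were without +Sm3CA replicate 2 and without Cont replicate 2. In fits of 1 well per library Gal had too few reads to be tested and 1 gene was called on each of the 3 occasions. The count for day 3 was 2 without any single library, 11 without the filter on low counts (6 higher and 5 lower, among them Krt17, Tnc, Ccl2, C3ar1, Lyz2, Spink12 and Apod), 10 with only the 6 day 3 libraries and a replicate block (among them Krt17, Tnc, Ccl2, Lyz2 and mt-Rnr2), and 523 at an unadjusted p under 0.05.

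Replicate numbers do not pair Cont with +Sm3CA: on day 3 the correlations of deviations were 0.056, 0.061 and −0.018. With the replicate block in the full fit the pairing left 2 calls on day 3 and 9 for the change from day 3 to day 8 (3 as reported). With the block within each series, added after the results were seen, the changes from day 3 to days 6, 8 and 10 gave 0, 10 and 119. The count for day 6 (1 as reported) was 10 without the filter, and 0 in the fits of well 1 and of well 2. For day 8 (106 as reported) it was 32 with all 30 libraries, 264 without the filter, and 43 and 34 with well 2 and well 3. DESeq2's Wald test gave 68 higher and 71 lower on day 8, against 39 and 67. For day 10 (366 as reported) it was 224 with all 30 libraries and 238 with well 3. Without single day 3 libraries the counts were 1 for day 6, 86 to 111 for day 8 and 345 to 387 for day 10.

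For the change from day 3 to day 6 (0 as reported) the filter's absence gave 6, and leaving out single day 3 libraries gave 0, except 3 without +Sm3CA replicate 1. For day 8 (3 as reported) DESeq2 gave 21, all 30 libraries 0, no filter 54, and fits of well 1, 2 or 3 gave 8, 11 and 0. It was 0 without +Sm3CA replicate 3, Cont replicate 1 or Cont replicate 3, 6 without +Sm3CA replicate 1 and 15 without Cont replicate 2. For day 10 (103 as reported) all 30 libraries gave 42, no filter 198, and fits of well 1, 2 or 3 gave 62, 57 and 45. The fits of well 2 and well 3 shared their day 10 wells. The count was 27 without Cont replicate 1, 47 without Cont replicate 3, 57 and 60 without +Sm3CA replicates 2 and 3, and 135 without +Sm3CA replicate 1. DESeq2 gave 32 up and 107 down, against 11 and 92. Causes were not tested. Leaving out mitochondrial genes, chosen after seeing the data, moved no count by over 1.5 times. Of 144 values of list medians 139 moved by less than the spread of libraries; the exceptions were the SMAD family and the surface markers with 1 library left out.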
